A study of Mus musculus with 14 samples.

Results

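Prkca and Lclat1 are a pair of mouse genes at which long stretches carried less H3K27ac in regulatory T cells that lacked Slc31a1 than in control regulatory T cells. They were selected on exactly that measured difference in bases under H3K27ac peaks: the window of Prkca, chr11:107820001-108240000 in mm39, holds a stretch of 120 kb with fewer acetylated bases in the knockouts, and the window of Lclat1, chr17:73400001-73560000, holds one of 80 kb. The members are the 361 peaks that the deposited lists place in these windows, 244 at Prkca and 117 at Lclat1, of 309136 peaks in all. All 361 were H3K27ac peaks. Because H3K27ac of knockouts against controls chose the windows, every H3K27ac difference between the genotypes given here is a description with no test. H3K27me3, which the rule did not use, had no peak in either window, so tests were made in the flanks.

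The cells were FACS-sorted regulatory T cells from chimeras, 140000 cells a sample, profiled by CUT&Tag, in which an antibody directs a transposase to cut out and tag the chromatin that bears a mark. The knockout samples, labelled ChimeraKO, came from Foxp3YFP-Slc31a1△;wt mice, and the control samples, labelled ChimeraWT, from Foxp3YFPcre;wt mice. Slc31a1 encodes CTR1, the copper importer of the cell surface, and was deleted where the Foxp3 locus drives Cre, so that both genotypes carry the Cre allele. H3K27ac lists came from 3 knockout and 3 control samples and H3K27me3 lists from 2 knockout and 2 control samples. The titles number the chimeras: in each genotype H3K27ac came from chimeras 2, 3 and 4 and H3K27me3 from chimeras 1 and 2, so that chimera 2 gave a list of both marks. Whether a number stands for 1 animal is not said, and the labels give no age or sex of the mice. The genotype and the cell type were not checked at marker genes here, since the gene table at hand is of another build than the peaks.

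H3K27ac is placed by the acetyltransferases p300 and CBP at active promoters and enhancers, and long clusters of it mark enhancer-rich genes of a cell type. H3K27me3 is placed by Polycomb repressive complex 2 on silent genes, and as both marks use the same lysine they exclude each other on 1 histone tail. Prkca encodes protein kinase C alpha, a conventional protein kinase C that calcium and diacylglycerol activate downstream of receptors such as the T cell receptor. Lclat1 encodes lysocardiolipin acyltransferase, also called ALCAT1, an enzyme that attaches acyl chains to lysophospholipids and takes part in remodelling cardiolipin and phosphatidylinositol.

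The promoters are shown because every H3K27ac list had a peak where the window should hold the gene's start, at the far end from the loss at Prkca and at its edge at Lclat1. The sequences are the 250 bases before the gene's start in RefSeq, in GRCm38.p6, a build other than that of the peaks, written 5′ to 3′ on the gene's strand. Prkca lies on the minus strand, at chr11:108343889-108344138 in GRCm38.p6, and Lclat1 on the plus strand, at chr17:73107735-73107984 in GRCm38.p6. Capitals mark GC boxes, GGGCGG on either strand, and the metal response element cores TGCGCNC and TGCACNC on either strand.
Prkca promoter: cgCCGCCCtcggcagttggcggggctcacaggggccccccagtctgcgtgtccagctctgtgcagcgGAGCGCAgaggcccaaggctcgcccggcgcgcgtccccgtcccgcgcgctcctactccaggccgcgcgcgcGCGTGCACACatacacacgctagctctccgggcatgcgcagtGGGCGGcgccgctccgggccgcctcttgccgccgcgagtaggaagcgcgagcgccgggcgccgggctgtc
Lclat1 promoter: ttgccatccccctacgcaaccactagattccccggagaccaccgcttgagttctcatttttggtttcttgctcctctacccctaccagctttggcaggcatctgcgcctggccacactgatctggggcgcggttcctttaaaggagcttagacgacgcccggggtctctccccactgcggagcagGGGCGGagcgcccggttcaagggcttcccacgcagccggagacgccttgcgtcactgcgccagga
The Prkca promoter has 39 CpG and 76.8% G and C, more G and C than 97.2% of the 32851 promoters in the table. The Lclat1 promoter has 18 CpG and 62.4% G and C, above 77.5% of them. A GC box was found at 2 places in Prkca and 1 in Lclat1, and 32.7% of all promoters of the same length hold one. The metal response core with G was found once in Prkca, against 12.5% of all promoters with a match, and that with A at 2 overlapping places, against 10.4%. Neither core was found in this window of Lclat1. On either strand, neither window held the CCAAT box, in 33.8% of all promoters, or TATAAA, the TATA box, in 12.4%. Nor did either hold CCGGAAG, a core of ETS factors, in 6.91%, TGACTCA, the AP-1 site, in 4.46%, or TGTTTAC, a forkhead core, in 3.17%. The NRF1 motif, in 0.782% of all promoters, was found in neither. These matches describe letters only.

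The position of each gene's start in mm39 was bounded from its length. RefSeq gives Prkca 410.502 kb in a window of 420 kb. If that length holds in mm39 and the window contains the whole gene, the start lies between 108230502 and 108240000. For Lclat1, of 135.384 kb in a window of 160 kb, the same reasoning puts the start between 73400001 and 73424617.

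At Prkca, fewer bases were acetylated in the knockouts mainly in the middle of the window, while in the part towards the gene's start the totals of the genotypes overlapped. Knockouts 1 to 3 had 52270, 66196 and 54297 bases under H3K27ac peaks in the window, against 79628, 88726 and 83124 bases in controls 1 to 3. Knockout lists averaged 57588 ± 7524 bases, control lists 83826 ± 4589 (SD, n = 3 each), and each knockout list lay below each control list. Knockouts kept 68.7% of the control mean. In these bulk samples, acetylation in fewer cells and less acetylation per cell cannot be told apart. The number of peaks was 33, 31 and 29 in knockouts, against 45, 55 and 51 in controls.

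**Figure D1:**
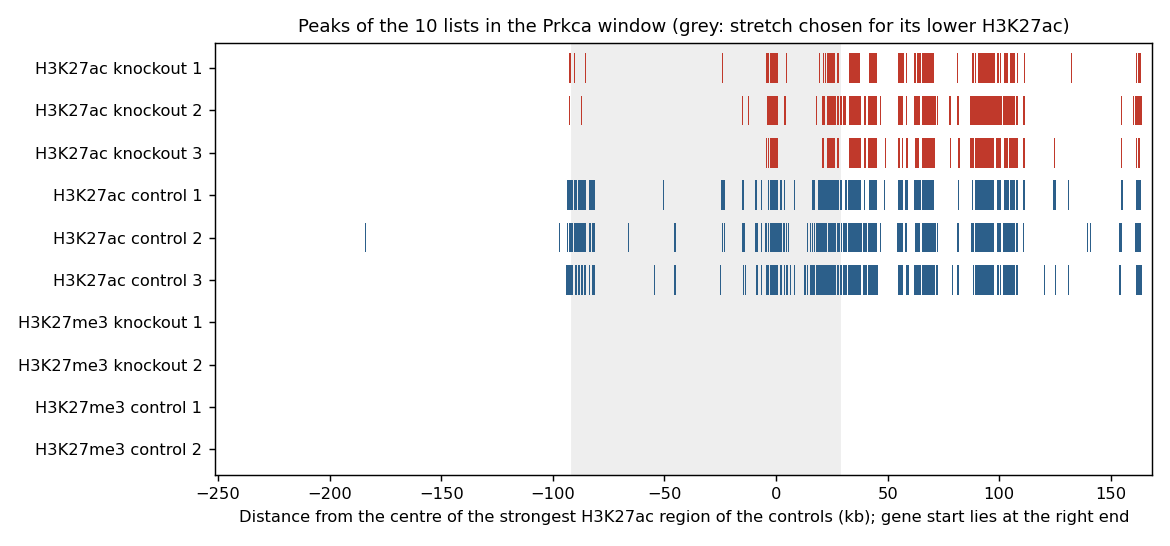
Peaks of the 10 lists in the Prkca window, 1 line a list, with filled blocks where the list has a peak and the horizontal axis in kb from the centre of the strongest H3K27ac region of the controls. In the grey stretch the H3K27ac blocks cover more in the 3 control lists than in the 3 knockout lists. Left of it every list has few blocks or none, blocks at the right differ less, and the 4 H3K27me3 lines are empty.

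Most of the difference lay in the chosen stretch of 120 kb, from 107980001 to 108100000. There the knockouts had 12359, 12973 and 9245 bases under peaks, against 29488, 33489 and 29897 in controls, so that knockouts kept 37.2% of the control mean and this stretch made up 74.1% of the difference over the window. Between the stretch and the gene's start, from 108100001 to 108240000, knockouts had 39072, 52686 and 45052 bases and controls 47203, 52188 and 50597. The genotypes overlapped there and knockouts kept 91.2% of the control mean. On the other side, below 107980001, knockouts had 839, 537 and 0 bases and controls 2937, 3049 and 2630.

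Along Prkca the share kept by the knockouts was lower in the chosen stretch, near the middle of the window, than in the densely acetylated bins nearer the start. In bins of 10 kb, the largest difference was at 107980001 to 107990000, with 1113, 358 and 0 bases in knockouts and 7788, 7234 and 5089 in controls, or 7.31% of the control mean. It was 4.75% at 108080001 to 108090000, with 0, 416 and 0 bases in knockouts and 1574, 2839 and 4344 in controls. Bins from 108070001 and from 108090001 kept 53.8% and 61.1%, and that from 107970001, just outside the chosen stretch, kept 17.2%. These 5 bins had the largest differences in the window by bases, and in each of them every knockout list was below every control list, as in 12.4% of all bins tested over the genome. Further on, the bins starting at 108100001, 108110001, 108120001 and 108130001 kept 77.6%, 85.8%, 86.0% and 90.8%, and in the bins from 108120001 and 108130001 every knockout was still below every control. From 108140001 to 108190000 the knockout means were at or above the control means, and the bin from 108160001 had 8221, 10000 and 8773 bases in knockouts and 7971, 8625 and 8679 in controls, with overlapping lists. Its mean was higher by 573 bases, and those from 108150001 and 108180001 by 306 and 263. The bins from 108190001 to 108230000 were sparse in both genotypes, with knockout means of 146, 180, 0 and 247 bases and control means of 893, 293, 265 and 902. In that from 108220001, with 0, 361 and 381 bases in knockouts and 704, 1172 and 831 in controls, the lists did not overlap. The last bin, which holds the bounded start, had 2153, 3397 and 1801 bases in knockouts and 2539, 3027 and 2673 in controls.

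Where the loss at Prkca ended depended on the measure. Bases under a peak in all 3 controls and in no knockout came to 10658, or 16.9% of the bases that all 3 controls shared, and 84.9% of them lay in the chosen stretch. Stretches of such bases of at least 500 bases began at 107979434 and ended at 108073850, which is between 157 and 166 kb from the bounded start of the gene. That end is set by the minimum of 500 bases: the bins from 108080001 and 108090001 lie past it and kept 4.75% and 61.1%. Stretches of at least 200 bases went on to 108103241. Leaving out control 1 or control 2, which eases the rule, moved the upper end to 108225744 or 108196863. Without knockout 1 or knockout 3 it was 108093984 or 108103241, and without knockout 2 or control 3 it did not move. The reverse, bases that all 3 knockouts and none of the controls covered, came to 0.

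**Figure D2:**
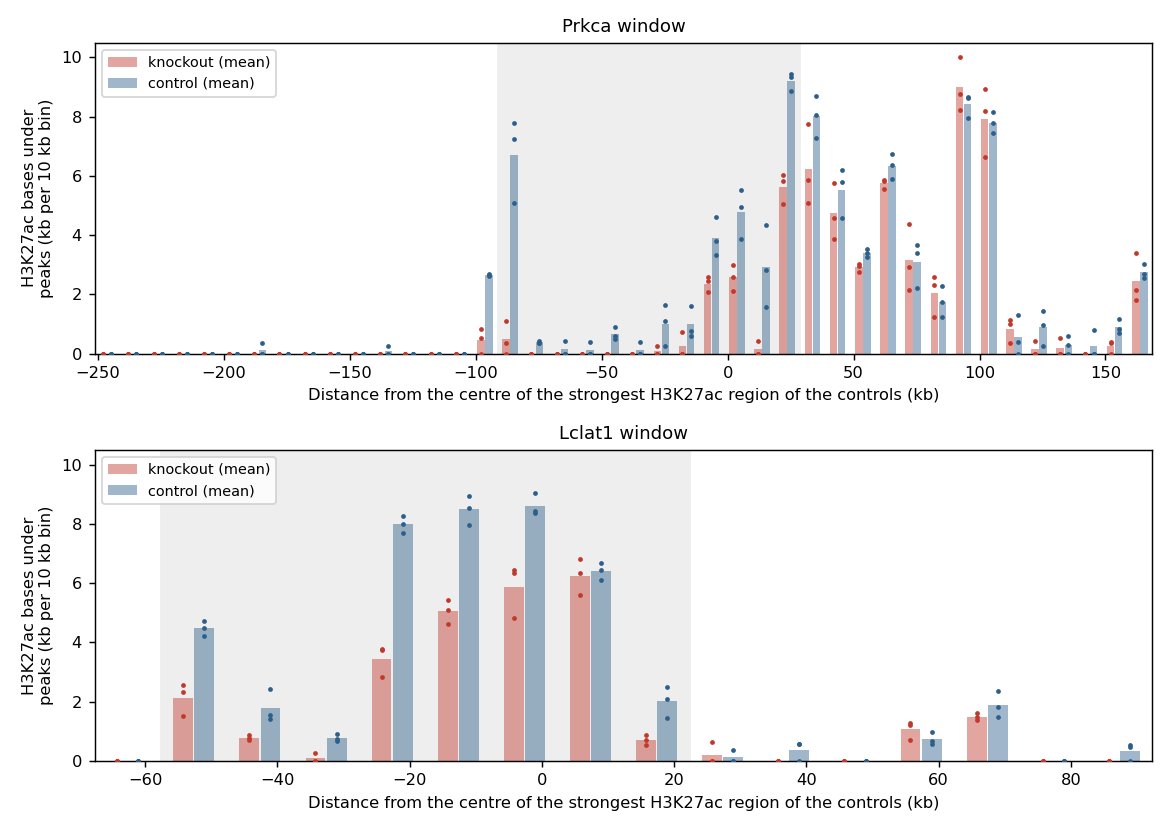
H3K27ac bases under peaks in each 10 kb bin of both windows, with knockout bars left of control bars, bars at the mean of 3 lists, dots for the lists and the chosen stretch in grey. At Prkca the knockout bars are below the control bars in the grey stretch and reach them in several bins at the right. At Lclat1 the knockout bars are low from the left up to the bin right of 0 kb, where knockouts had 5614, 6801 and 6358 bases and controls 6114, 6437 and 6666.

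The strongest acetylated site of Prkca stood inside the chosen stretch, and its height overlapped between the genotypes in fragments but not after scaling. The fold and p of a peak give back the pileup at its summit, the number of fragments stacked on its highest base. In the region from 108068801 to 108073877 the pileup was 246, 304 and 233 fragments in knockouts and 306, 248 and 238 in controls, or 261 ± 37.8 for knockouts and 264 ± 36.7 for controls (SD, n = 3 each). The lists state no depth. Divided by the lowest background read from each list, a scale chosen after the values were seen, the pileup was 96.4, 99.8 and 97.0 in knockouts and 106, 119 and 113 in controls, every knockout below every control. The same region was narrower, with 3302, 3377 and 3302 bases under peaks in knockouts and 4323, 5067 and 4015 in controls. The next strongest regions all lay between the stretch and the gene's start. That from 108158439 to 108172580 had 316, 451 and 302 fragments in knockouts and 278, 234 and 268 in controls, each knockout above each control in fragments. Scaled, it was 124, 148 and 126 in knockouts and 96.5, 112 and 127 in controls, which overlap. Regions from 108112419, 108103692 and 108136774 had means of 258 ± 70.9, 214 ± 52.9 and 202 ± 49.4 fragments in knockouts and 221 ± 18.2, 247 ± 35.8 and 209 ± 49.9 in controls, with overlapping lists. Scaled, the region from 108103692 had every knockout below every control, at 88.1, 85.4 and 64.9 in knockouts and 93.4, 98.7 and 127 in controls, and the others overlapped.

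Regions of middle height in the same stretch were lower in the knockouts on both scales. These were singled out after their values were seen. From 108089300 to 108099786 the pileup was 39, 33 and 28 fragments in knockouts and 68, 61 and 55 in controls, with 5821, 6448 and 5063 bases under peaks in knockouts and 9351, 9569 and 10135 in controls. At the edge of the stretch, from 107977511 to 107980188, it was 35 and 24 fragments in knockouts 1 and 2, with no peak in knockout 3, and 89, 59 and 60 in controls. A region from 107987465 to 107990415 had no peak in any knockout and 2885, 2568 and 2011 bases in controls. It was 1 of 4 merged regions at Prkca with a peak in all 3 controls and none of the knockouts, out of 60, while 13 had a peak in all 6 lists and 0 in the 3 knockouts alone. These are shares of 6.67%, 21.7% and 0%, against 2.66%, 34.9% and 0.809% of 37563 regions merged the same way over the genome. At Lclat1 2 of 24 regions, or 8.33%, had a peak in the 3 controls alone, 10 in all 6 lists and 0 in the 3 knockouts alone.

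At Lclat1 fewer bases were acetylated in the knockouts over most of the chosen stretch, from the gene's start onwards, and the 3′ part of the window was sparse in both genotypes. Knockouts 1 to 3 had 27291, 29270 and 24753 bases under H3K27ac peaks in the window, against 45389, 42613 and 44059 in controls 1 to 3. Knockout lists averaged 27105 ± 2264 bases and control lists 44020 ± 1388 (SD, n = 3 each), the lists of the genotypes did not overlap, and knockouts kept 61.6% of the control mean. Peaks numbered 17, 15 and 14 in knockouts and 21, 22 and 28 in controls.

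**Figure D3:**
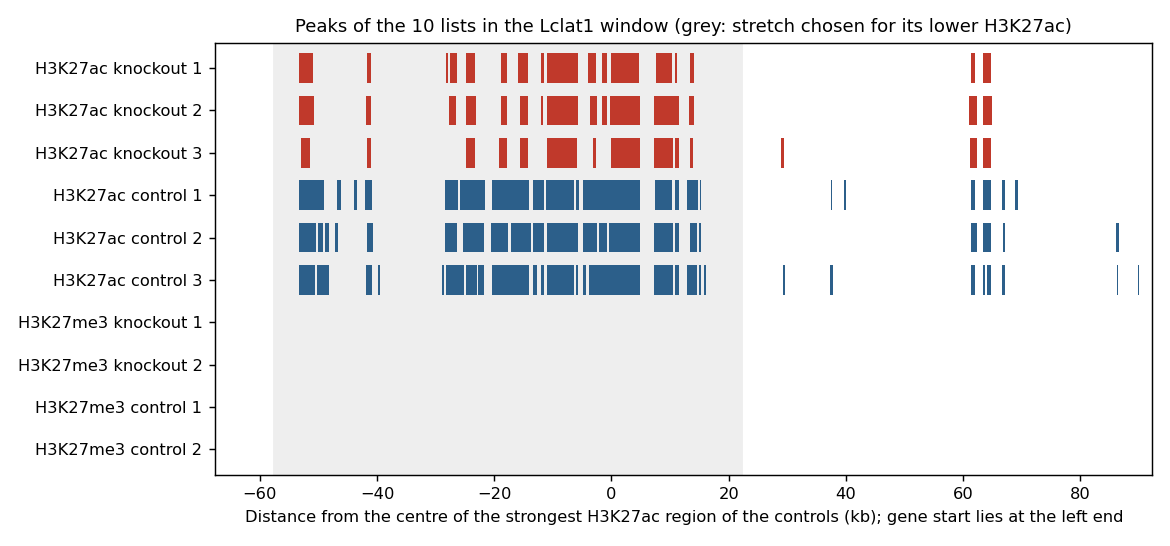
Peaks of the 10 lists in the Lclat1 window, 1 line a list, with filled blocks where the list has a peak and the horizontal axis in kb from the centre of the strongest H3K27ac region of the controls. Knockout blocks lie mostly within control blocks and are narrower over most of the grey stretch, and the 4 H3K27me3 lines are empty.

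The chosen stretch of Lclat1, from 73410001 to 73490000, held 95.8% of the difference. It had 25225, 26356 and 21428 bases under peaks in knockouts and 41782, 39333 and 40528 in controls, so that knockouts kept 60.0% of the control mean. Above it, up to 73560000, knockouts had 2066, 2914 and 3325 bases and controls 3607, 3280 and 3531, with overlapping lists.

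The difference at Lclat1 was spread over most bins of the stretch and skipped 1. The largest difference was at 73440001 to 73450000, with 3732, 3773 and 2831 bases in knockouts and 8278, 7698 and 7995 in controls, or 43.1% of the control mean. Bins from 73450001 and 73460001 kept 59.6% and 68.2%. The bin from 73410001, which lies in the part that holds the gene's start, kept 47.5%, with 2323, 2556 and 1504 bases in knockouts and 4214, 4495 and 4727 in controls. The bin from 73480001 kept 35.2%, but the bin between, from 73470001, kept 97.7%. In these 5 bins of the largest differences (from 73410001, 73440001, 73450001, 73460001 and 73480001) every knockout list was below every control list. Over the genome this held in 12.4% of all bins tested. The 5 bins were picked by this difference, so nothing is read from their count. The only bins with a higher mean in knockouts were those from 73520001, by 319 bases, and from 73490001, by 86.7 bases, both with overlapping lists.

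Long stretches lost at Lclat1 ended inside its strongest region. Bases under a peak in all 3 controls and in no knockout came to 8377, or 23.0% of the bases that all 3 controls shared, and the last such stretch of at least 500 bases ended at 73466123, in the region from 73462743 to 73472568. That is between 41.5 and 66.1 kb from the bounded start of the gene. Counting stretches from 200 bases, the last one ended at 73534788, and with 1000 bases at 73451640. The bin from 73480001, past the end by the 500-base rule, kept 35.2% with every knockout below every control. The reverse, bases that knockouts alone shared, came to 3.

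Of the 5 strongest regions of Lclat1, 4 overlapped in fragments between the genotypes and 2 overlapped when scaled. The share of regions over the genome that overlap in this way was not computed. In the region from 73462743 to 73472568 the pileup was 192, 290 and 162 fragments in knockouts and 249, 167 and 184 in controls, with overlapping lists. Bases under peaks in it were 6916, 6989 and 5538 in knockouts and 9746, 8982 and 9297 in controls. From 73456470 to 73462069 the pileup was 122, 118 and 87 fragments in knockouts and 174, 120 and 139 in controls, and the covered length hardly differed, at 5265, 5250 and 5165 bases in knockouts and 5345, 5315 and 4993 in controls. From 73474846 to 73479238 it averaged 117 ± 31.4 fragments in knockouts and 107 ± 9.17 in controls. Lower in every knockout was the region from 73447114 to 73453883, with 49, 55 and 56 fragments in knockouts and 113, 98 and 92 in controls, and 2871, 2480 and 2702 bases in knockouts against 6251, 6195 and 6283 in controls. The last of the 5 strongest, from 73480514 to 73482361, had 65, 80 and 50 fragments in knockouts and 123, 72 and 93 in controls, with overlapping lists. Scaled, it had 25.5, 26.3 and 20.8 in knockouts and 42.7, 34.5 and 44.1 in controls, and the region from 73456470 had 47.8, 38.7 and 36.2 in knockouts and 60.4, 57.5 and 65.9 in controls. In both, every knockout was then below every control.

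A peak within the bounded range of each gene's start was kept. At Prkca, from 108231994 to 108235407, each of the 6 lists had it. At Lclat1, in the region from 73414345 to 73419461, the pileup was 219, 180 and 110 fragments in knockouts and 281, 125 and 145 in controls. That region covered 2323, 2556 and 1504 bases in knockouts and 4214, 4495 and 4727 in controls, so the peak heights at the start overlapped, in fragments and when scaled, while each knockout covered fewer bases there than each control.

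**Figure D4:**
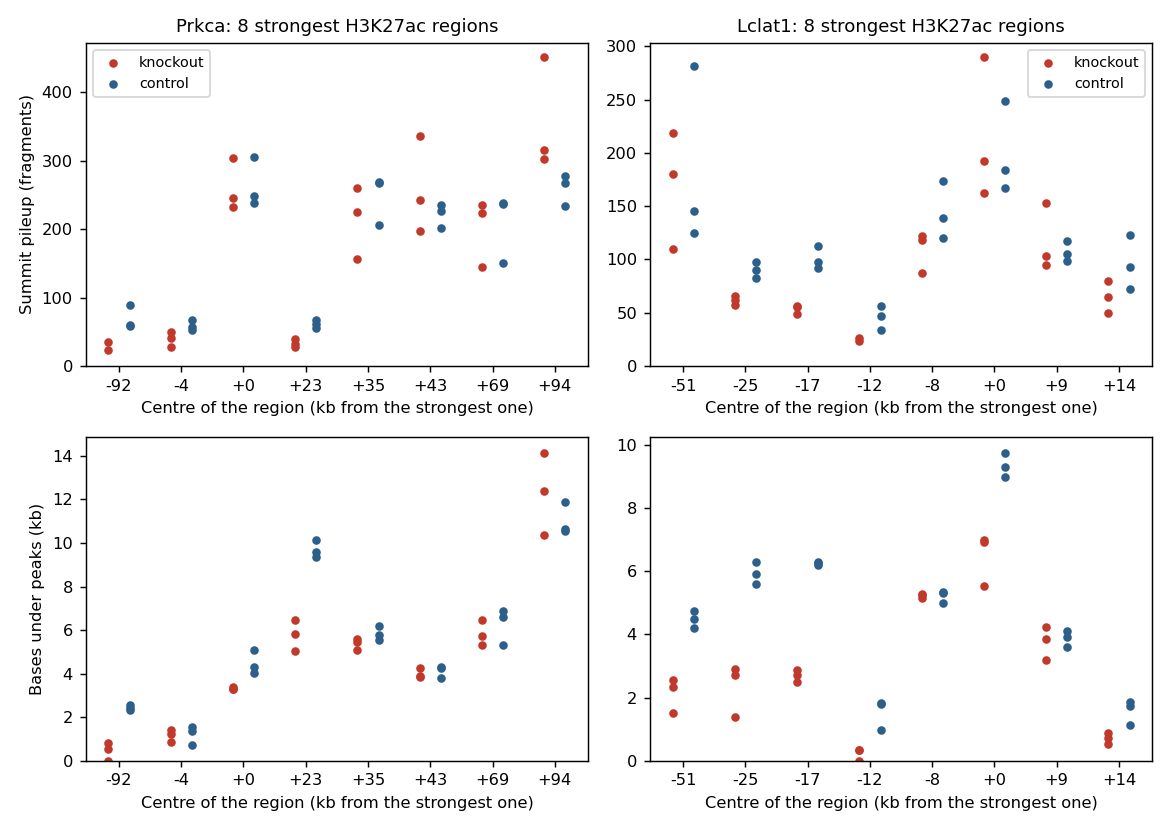
Summit pileup in fragments (top) and bases under peaks in kb (bottom) of the 8 strongest H3K27ac regions of the controls in each window, ordered by position, with 1 dot a list and knockouts left of controls. In fragments, not scaled for depth, every knockout list with a peak is below every control list in 3 of 8 regions in each window, and above in 1 region of Prkca, with 302 to 451 fragments in knockouts and 234 to 278 in controls. The share of such regions over the genome was not computed.

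The covered bases of the knockouts lay inside those of the controls, more than the reverse. At Prkca a control list had between 55.5% and 68.6% of its bases also under peaks of a given knockout list, with a median of 61.0% over the 9 pairs, and at Lclat1 between 50.5% and 65.9%, with a median of 59.6%. Over the whole genome the same share ran between 69.6% and 85.2%. In turn, a knockout list at Prkca had a median of 89.9% of its bases under peaks of a given control list, and at Lclat1 95.9%, against 81.6% over the genome. Between control lists the medians were 83.4% at Prkca, 88.1% at Lclat1 and 82.1% over the genome. Pairs share libraries, so these shares are a description.

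Control peaks without a partner in any knockout were mostly of low to middle strength in their lists, with lower medians than those that all 3 knockouts overlapped. At Prkca, 13 of 45, 19 of 55 and 22 of 51 peaks of controls 1 to 3 overlapped no knockout peak, and at Lclat1 7 of 21, 6 of 22 and 12 of 28. Over whole lists 19.1%, 13.9% and 14.2% of control peaks had none. The median percentile of −log10 p of such Prkca peaks within their own lists was 23.1, 28.1 and 28.8, against 64.5, 72.9 and 73.9 for Prkca peaks that all 3 knockouts overlapped. At Lclat1 it was 42.0, 39.0 and 30.6 for peaks without a partner, against 82.8, 86.3 and 78.7. With each list split into 3 equal classes by −log10 p, in the middle class 8 of 22, 10 of 23 and 16 of 31 control peaks of both windows had no knockout partner, against 16.3%, 10.2% and 10.0% in whole lists. In the upper class it was 1 peak in each control list, of 24, 26 and 24 (4.17%, 3.85% and 4.17%), against 1.14%, 0.45% and 0.474% in whole lists. In the lower class it was 11 of 20, 14 of 28 and 17 of 24, against 39.8%, 30.9% and 32.1% in whole lists. Whole lists thus had the same order of the classes, so that order is not particular to these windows. Of the knockout peaks, 1 of 50, 2 of 46 and 1 of 43 overlapped no control peak, all at Prkca, against 9.39%, 12.4% and 8.96% in whole lists.

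The genome-wide fit that picked the windows called 5 of 23 tested bins lower at Prkca and 5 of 10 at Lclat1, and none higher. Over all 19295 bins tested with limma, 2.25% were called lower and 0.58% higher. The lists of the genotypes did not overlap, with every knockout lower, in 12 of the 23 Prkca bins and 7 of the 10 Lclat1 bins, against 12.4% of all bins, and in none was every knockout higher, against 9.64%. The median log2 change in covered bases was -0.72 at Prkca and -0.93 at Lclat1, and -0.05 over all bins. The rule used this contrast, so nothing is read from these counts. The call counts depend on single libraries: at both genes they were 0 without control 1, 2 or 3 or without knockout 2, and 1 without knockout 3. With the replicate number as a block 0 Prkca and 1 Lclat1 bins were called, and with a pseudocount of 10 bases 1 at each.

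Loci most like them were sought by the number of called lower bins, joining bins within 50 kb. Among 342 loci lower in knockouts, Prkca and Lclat1 shared the second rank with 5 called bins each. On chromosome X, a locus from 169250001 to 169320000 had 7, with 0 covered bases in each knockout and a mean of 48384 ± 3816 in controls (SD, n = 3). Next came chromosome 14 from 45230001 to 45340000 and chromosome 18 from 80680001 to 80730000 with 4 each. The locus on 14 kept 35.4% of the control mean and that on 18 kept 21.3%. All other loci had at most 3.

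H3K27me3 was not listed in either window in any of the 4 lists, 2 of knockouts and 2 of controls. With 0 bases in every list there was nothing to test in the windows. The list of control 1 held 7512 peaks and covered 4.89 Mb, against between 30.6 and 62.8 Mb in the others. Its lowest −log10 p was 2.02, against about 9 in the other 3, so the H3K27me3 lists were compared across unlike thresholds. No bin of either window entered the limma fit of H3K27me3, in which 0.0428% of 21034 bins were lower and 0.257% higher in knockouts. Among 13220 bins with H3K27ac in all 6 lists, 3.34% held an H3K27me3 base in any list.

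H3K27me3 bordered Prkca at its 3′ side. The nearest peak below the window ended 7.625 and 5.25 kb away in knockouts 1 and 2, and 10.3 and 8.87 kb away in controls 1 and 2. In the 200 kb below the window, 18474 and 33143 bases were under H3K27me3 peaks in knockouts and 3073 and 23402 in controls (exact permutation p = 0.667, two-sided, where 0.33 is the smallest possible with 2 against 2). In RefSeq, the next coding gene on this side is Cacng5, which encodes a gamma subunit of calcium channels, but no peak was assigned to it. Above the Prkca window, the nearest peak began 77.0 and 64.0 kb away in knockouts 1 and 2, and 610 and 61.3 kb away in controls 1 and 2. The 200 kb above it had 3119 and 5025 bases in knockouts and 0 and 7135 in controls, with overlapping lists. At Lclat1 the 200 kb above the window had 14354 and 24379 bases in knockouts and 0 and 12196 in controls (exact permutation p = 0.33, two-sided, the smallest possible), and the 200 kb below had 0 in every list. In the 3 lists other than that of control 1, the nearest peak above Lclat1 began between 58.7 and 61.0 kb from the window. Bases in these flanks were not scaled for the unlike sizes and thresholds of the H3K27me3 lists.

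The local background behind the peaks was measured beside the losses. It is the number of fragments that the peak caller took as background at a summit. At the Prkca region from 108089300 it was 4.24 ± 0.941 fragments in knockouts and 5.62 ± 0.498 in controls, and at the Lclat1 region from 73447114 it was 3.79 ± 1.31 fragments for knockouts and 5.27 ± 2.79 for controls (SD, n = 3 each). At the Prkca region from 108066351 it was 5.84 ± 0.529 in knockouts and 2.91 ± 1.21 in controls. These SDs may not be over independent backgrounds, since lists may share a background library (values below). For sites with no peak in a knockout list no background can be read. The lowest background read from a list, used above as a stand-in for depth, was 2.55, 3.05 and 2.40 fragments in knockouts and 2.88, 2.09 and 2.11 in controls. Whole H3K27ac lists covered 42.1, 47.2 and 37.7 Mb in knockouts and 43.3, 42.3 and 43.0 Mb in controls. The labels do not name the library that served as background. At the Prkca region from 108068801, background over the lowest of its list was 2.185, 2.185 and 2.185 in knockouts 1 to 3. In controls 1 to 3 it was 5.086, 3.595 and 3.595. Lists that share a background library would give such equal values. A background difference between the genotypes then cannot be told apart from one between background libraries. Its part in the differences of peak width and p was not tested.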

How the data were processed

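Peak lists of 10 CUT&Tag libraries were used as deposited, 1 list a library. Per the submitters' processing notes, the tools were Bowtie2 2.2.4, deepTools 3.5.1, MACS2, ChIPseeker 1.30.3 and HOMER 4.11, with build mm39. Settings are not given in the sources used here. The deposited score of a peak is 10 times its −log10 p without decimals, within 1. Fold enrichment was deposited as a ratio, and p and q values as −log10. The 4 IgG samples were not analysed here.

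Bases under peaks were counted per list, counting positions from 1. For the genome-wide fit, log2(bases + 100) per 10 kb bin was centred, using bins that all libraries cover. limma 3.58.1 (R 4.3.3) tested it with a trend and robust moderation, Benjamini-Hochberg adjustment and a threshold of 0.05. A bin entered if 3 libraries covered part of it for H3K27ac, and 2 for H3K27me3. limma was tested on simulated data. Summit pileup and background were solved from fold, taken as (pileup + 1)/(background + 1), and a Poisson p; of 3000 peaks sampled per H3K27ac list all gave a solution, or 2999 in knockout 3, and each solution was whole within 0.1 fragments. Pileup was also divided by the lowest background of its list, chosen after seeing the data. Permutation p-values compare groupings of these samples, and limma p-values set a difference against a spread that is moderated across bins. Neither reaches beyond these samples. A list states no depth, and peaks below its threshold, a −log10 p of 5 for H3K27ac and of 9 for H3K27me3 other than control 1, are not seen.

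The windows, lists and rules were chosen with earlier results of these data known. Named were the 5 bins with the largest falls and up to 3 with the largest rises in a window, the 5 regions with the highest mean −log10 p in controls, and the loci with the most called bins. The planned lists of protein kinase C and acyltransferase genes and the cell type markers were not analysed here, as the gene table is of GRCm38.p6. It matched both genes by symbol and gave their lengths, strands and promoters.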

Additional observations from a re-analysis of the deposited data

How the results depend on the processing

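H3K27ac bases under peaks stayed lower in knockouts under every alternative run. With lists of equal length the difference (knockout minus control) at Prkca was -19147 bases in the window and -16727 in the chosen stretch, and without the weakest 25% of peaks -16852 in the stretch, against -26238 and -19432 as deposited. Without 1 library it ranged from -30543 to -23580 and from -20167 to -18167 bases at Prkca, and from -17998 to -15740 and from -17221 to -14757 at Lclat1. With the replicate block the mean difference was unchanged, -26238, -19432, -16916 and -16211 bases. H3K27me3 bases in both windows were 0 under every alternative, without any 1 library (from 0 to 0) included. Control-only bases ranged from 11127 to 15374 at Prkca and from 8749 to 11425 at Lclat1 without 1 library, a rule thereby eased.

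The upper end of the loss at Prkca was 108103241 with a minimum stretch of 200 bases, 107990351 with 1000, and from 108073850 to 108225744 without 1 library. The lower end was 107977855, 107988984, and from 107977855 to 107979434. Divided by the lowest background of each list, summit pileup in knockouts was below that of controls with no overlap in 5 of 8 regions at each gene, against 3 of 8 in fragments. The share of such regions over the genome was not computed on either scale, so nothing is read from these counts. At Lclat1 the end of the loss was 73534788, 73451640, and from 73466123 to 73467484.

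Called H3K27ac bins, lower and higher, numbered 435 and 112, and 26 and 4 with a pseudocount of 10 bases, 169 higher with 1000, 269 and 58 with no filter, 254 higher with lists of equal length, 737 and 207 in 5 kb bins, and 29 and 3 with the replicate block. Without 1 library they ranged from 0 to 979 and from 0 to 237. In the Prkca window they were 1 with a pseudocount of 10, 2 with no centring, 3 with lists of equal length, 0 with the replicate block, and from 0 to 5 without 1 library. At Lclat1 they were 1, 2, 3 with quantile normalization, 1 with the replicate block, and from 0 to 6. H3K27me3 bins, 9 lower and 54 higher, were 1 and 0 with a pseudocount of 10, 0 and 0 with 1000, without centring and for lists cut to one length, 4 and 11 with no filter, 330 lower with quantile normalization, 3 and 29 in 5 kb bins, and from 0 to 723 and from 27 to 5454 without 1 library. At an unadjusted p under 0.05 limma gave 578 and 671 with 1000, 2 and 556 with no centring, and 559 and 177 for lists cut to one length. The cause of these changes was not tested.

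Whether replicate numbers pair the samples was not settled. Same-numbered samples of a mark carry the same chimera number in both genotypes, and deviations of same-numbered H3K27ac libraries correlated at 0.30, 0.07 and 0.09 across 13220 bins. Knockout 1 correlated best with its own number, knockouts 2 and 3 did not. For H3K27me3 the correlation was -0.13, a value that with 2 libraries a group can differ between pairings only in sign. A crossed pairing, chosen after seeing the data, gave 4 lower and 11 higher H3K27me3 bins. Lists show only peaks past their threshold, so a weak peak may be missing from a list rather than absent.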
